A study of Homo sapiens with 6 samples.

Results

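The tubulin isotypes described here are 10 α- and β-tubulin genes, Tuba1a, Tuba1b, Tuba1c, Tuba4a, Tubb2a, Tubb2b, Tubb3, Tubb4b, Tubb5 and Tubb6. They were picked by name, all 10 were found, and they are 10 of the 22413 genes for which expression was deposited. The cells were BaF3-T315I, a murine line derived from interleukin-3-dependent pro-B cells and stably transfected with T315I-mutated BCR-ABL. Messenger RNA was sequenced in 3 control samples and in 3 samples exposed to 1.1 µM of I13, a histone deacetylase (HDAC) inhibitor, for 48 h. The sample labels call the control treatment only "Control" and do not say whether replicates are separate cultures. The study's methods speak of independent experiments in general, without naming the sequenced samples, and do not say whether the line is 1 clone. The p-values therefore measure the spread between these samples, which may be technical.

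Microtubules are hollow polymers of a dimer of 1 α- and 1 β-tubulin, and they form the mitotic spindle, the tracks of intracellular transport and the core of cilia. Mammals encode each subunit in several genes, called isotypes, whose proteins are very similar apart from the acidic tail at their carboxyl end. Tubulin mRNA is subject to autoregulation, in which free tubulin dimers trigger the decay of tubulin mRNA during its translation. α-Tubulin is also a deacetylase substrate, since HDAC6 and SIRT2 remove the acetyl group that ATAT1 adds.

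Expression is given as FPKM, the fragments on a gene per kilobase of its length and per fixed number of mapped fragments in the library. Levels of different genes can be set side by side only as far as the gene lengths used are right. The lengths recovered were 1875 bases for Tuba1b and 3327 for Tubb5, and they were not checked. An order of genes, or a ratio of α to β, carries this limit in every sample alike. The library totals lay between 16762119 and 17722950 fragments. The 6 genes set for the identity of BaF3-T315I cells were all present, and the receptor gene Csf2rb lay between 239 and 838 FPKM. Of 8 fibroblast, epithelial and endothelial markers, 3 were in the table, and of these Col1a1 and Cdh5 lay at or under 0.13 FPKM while Pecam1 lay between 35.5 and 45.9 FPKM. The labels name the organism as human, whereas the gene identifiers are mouse Ensembl identifiers and the study calls the cells murine. The values were used as those of mouse genes, and no mouse sequences or coordinates were used here.

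The tubulin genes spanned a wide range of levels and fell into clear tiers. Over all 6 samples Tuba1b had a mean of 649 FPKM and Tubb5 a mean of 590 FPKM, ranks 71 and 77 among the 22413 genes. Tuba1b, an α-tubulin found in most tissues, was above Tubb5, the main β-tubulin of dividing cells, within each of the 6 samples, although the ranges of both genes over the samples overlapped. Next came Tuba1c at 204 FPKM and Tubb4b, a widely expressed β-tubulin also used in cilia, at 184 FPKM, and these neighbors were not separated, since Tuba1c was the higher in 4 of 6 samples. Tuba4a, an α-tubulin whose gene does not encode the terminal tyrosine of other α-tubulins, followed at 94.2 FPKM. Tuba1a, an α-tubulin prominent in developing neurons, had 78.9 FPKM, with Tuba4a the higher in 5 of 6 samples. Tubb6 at 29.7 FPKM and Tubb2a at 15.4 FPKM closed the expressed group, and their ranges overlapped neither each other nor those of any other gene named so far. The plot of FPKM by sample shows these tiers.

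**Figure D1:**
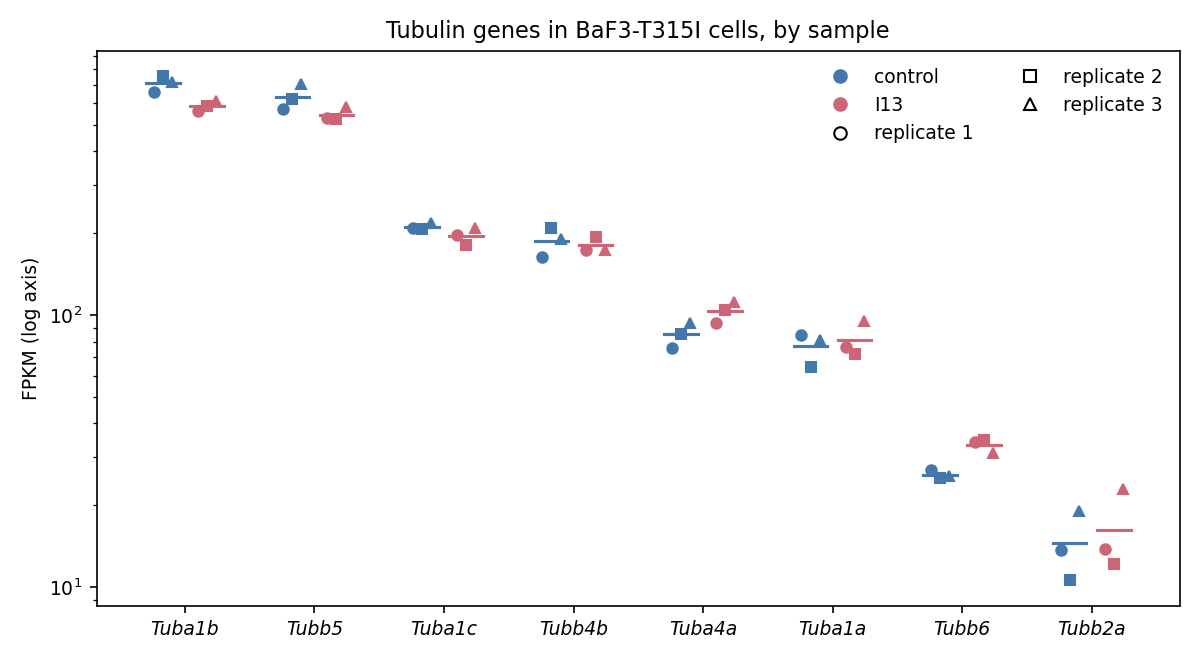
FPKM (log axis) of the 8 tubulin genes with a mean of at least 0.5 FPKM, ordered by mean level; each point is 1 sample (blue control, red I13, marker shape giving the replicate number) and each bar a group mean. Tuba1b and Tubb5 sit at or above 526 FPKM in all samples, and the red and blue points are fully separated for Tuba1b (lower after I13), Tuba4a and Tubb6 (both higher after I13).

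Tubb3 and Tubb2b, the β-tubulins best known from neurons, were close to absent. The control replicates 1, 2 and 3 had 0.0906, 0.0911 and 0.0304 FPKM of Tubb3, whereas I13 replicates 1, 2 and 3 had 0.0608, 0 and 0 FPKM. These values rest on 3, 3 and 1 fragments in the controls and on 2, 0 and 0 fragments after I13. The ratio of the fragment rates, I13 over control, was 0.292, with an exact 95% interval from 0.0296 to 1.53 that covers counting error only. Tubb2b was listed at 0, 0.0247 and 0 FPKM in the controls and at 0.0247, 0.026 and 0.0996 FPKM after I13, from 1 fragment in all controls together and 6 in all I13 samples together. Its ratio was 6.13, with an exact interval from 0.743 to 282. Both intervals include a ratio of 1, so a difference was not detectable at this depth. A count of 0 in 1 library allows up to 3 fragments, which is 0.091 FPKM for Tubb3 and 0.0753 FPKM for Tubb2b. Among 8 neuronal markers, 3 were in the table, and their summed level was 0.267 to 0.697 FPKM in the controls and 0.232 to 0.515 FPKM after I13, most of it from Syp, while Elavl3 and Elavl4 were at or under 0.058 FPKM.

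Whether I13 altered the level of any isotype was asked with limma on log2(FPKM + 0.1), fitted to the 12163 genes with a mean of at least 0.5 FPKM and adjusted by the Benjamini-Hochberg method over all of them. Calls needed an adjusted p below 0.05 together with a log2 fold change of at least 0.58 in size, the thresholds of the study. At these thresholds the study, which names no test, reported more genes in both directions than this fit called. Of the 10 isotypes, 8 entered the test and Tubb2b and Tubb3 were below the filter. None of the 8 was called, against 0.0411% of all genes tested, and their adjusted p from limma ran from 0.12 to 0.83. Both groups carry the same replicate numbers, and the deviations of same-numbered samples from their group means were weakly correlated. The fit was therefore also made with the replicate number as a block. This pairing was taken from the same values that the blocked fit tests. With the block none of the 8 was called either, against 1.89% of all genes, and none had an adjusted p below 0.05, against 2.99%. The lowest adjusted p with the block was 0.0635, for Tubb6 and for Tuba4a. At an unadjusted p below 0.05 without the block were 3 of the 8, Tubb6, Tuba4a and Tuba1b, against 18.6% of all genes. The median size of the log2 fold change was 0.18 over the 8 isotypes and 0.19 over all genes tested, and the median with its sign was 0.01 and -0.01. In bulk RNA, fewer cells that carry a transcript and less of it per cell cannot be told apart.

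Tuba1b, the isotype with the highest mean FPKM, had lower values after I13. Control replicates 1, 2 and 3 had 659, 757 and 720 FPKM, whereas I13 replicates 1, 2 and 3 had 562, 586 and 612 FPKM. The highest I13 sample thus lay below the lowest control. The means were 712 ± 49.4 and 587 ± 24.6 FPKM (SD, n = 3 per group), a difference of -17.6% relative to the control. The log2 fold change was -0.28 (SE 0.09, 95% interval -0.49 to -0.07, limma adjusted p = 0.178, or 0.0663 in the blocked fit). Between 18422 and 25024 fragments stood behind each value, for a counting error of at most 0.737%, so the spread of 6.94% among controls and 4.2% among I13 samples was much larger than counting error.

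Tubb5 followed the same direction with more spread. Its values were 572, 624 and 707 FPKM in the controls and 530, 526 and 580 FPKM after I13. The groups overlapped, because I13 replicate 3 lay just above control replicate 1, yet in each same-numbered pair the I13 sample was the lower. The means were 634 ± 68.3 and 546 ± 29.9 FPKM (SD, n = 3 per group), with a log2 fold change of -0.21 (SE 0.10, 95% interval -0.46 to 0.03, limma adjusted p = 0.32, or 0.105 in the blocked fit). Tubb5 carried more fragments than any other isotype, from 29343 to 41455 a sample.

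Tuba4a and Tubb6 had higher values after I13. Tuba4a was at 76, 85.6 and 93.4 FPKM in the controls, against 94, 105 and 112 FPKM after I13. The groups did not overlap, but the lowest I13 sample and the highest control nearly touched, and samples of the same number ranked alike in both groups. The log2 fold change was 0.28 (SE 0.11, 95% interval 0.03 to 0.54, limma adjusted p = 0.232), and the block reduced the standard error to 0.059 and the adjusted p to 0.0635. Tubb6, a β-tubulin of many non-neuronal tissues, was at 27.1, 25.1 and 25.7 FPKM in the controls and at 34.1, 34.8 and 31.1 FPKM after I13. The 3 I13 samples all lay above the controls, and the difference of the means, from 26 ± 1.01 to 33.3 ± 1.95 FPKM (SD, n = 3 per group), was 28.3% of the control mean. Its log2 fold change of 0.36 was the largest in size of the 8 (SE 0.09, 95% interval 0.15 to 0.56, limma adjusted p = 0.12, or 0.0635 in the blocked fit). The whole interval lay under the fold change threshold, and 779 to 1055 fragments a sample were counted.

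The remaining isotypes showed no difference beyond their spread. Tuba1c was at 209, 208 and 217 FPKM in the controls and at 196, 181 and 210 FPKM after I13, with a log2 fold change of -0.11 (95% interval -0.31 to 0.09, limma adjusted p = 0.523). Tubb4b was at 164, 209 and 191 FPKM in the controls and at 173, 194 and 174 FPKM after I13, with a log2 fold change of -0.05 (95% interval -0.31 to 0.21). The I13 values of both genes overlapped the control values. Tuba1a had 84.7, 64.4 and 81.2 FPKM in the controls and 76.2, 72.3 and 94.9 FPKM after I13, with a log2 fold change of 0.08 (95% interval -0.27 to 0.43). Tubb2a, a β-tubulin abundant in brain, had 13.8, 10.6 and 19.1 FPKM in the controls and 13.9, 12.2 and 22.9 FPKM after I13. Its values separated the replicate numbers rather than the treatments, with replicate 3 the highest and replicate 2 the lowest of both groups. The log2 fold change of Tubb2a was 0.15 with an interval from -0.52 to 0.83 without the block and from -0.06 to 0.37 with it. For Tuba1c, Tubb4b and Tuba1a the intervals exclude a log2 fold change of 0.58 in either direction, and for Tubb2a that holds only with the block. The direction of Tuba1a and Tubb2a turned without control replicate 2 or without I13 replicate 3, and that of Tubb4b without control replicate 2.

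**Figure D2:**
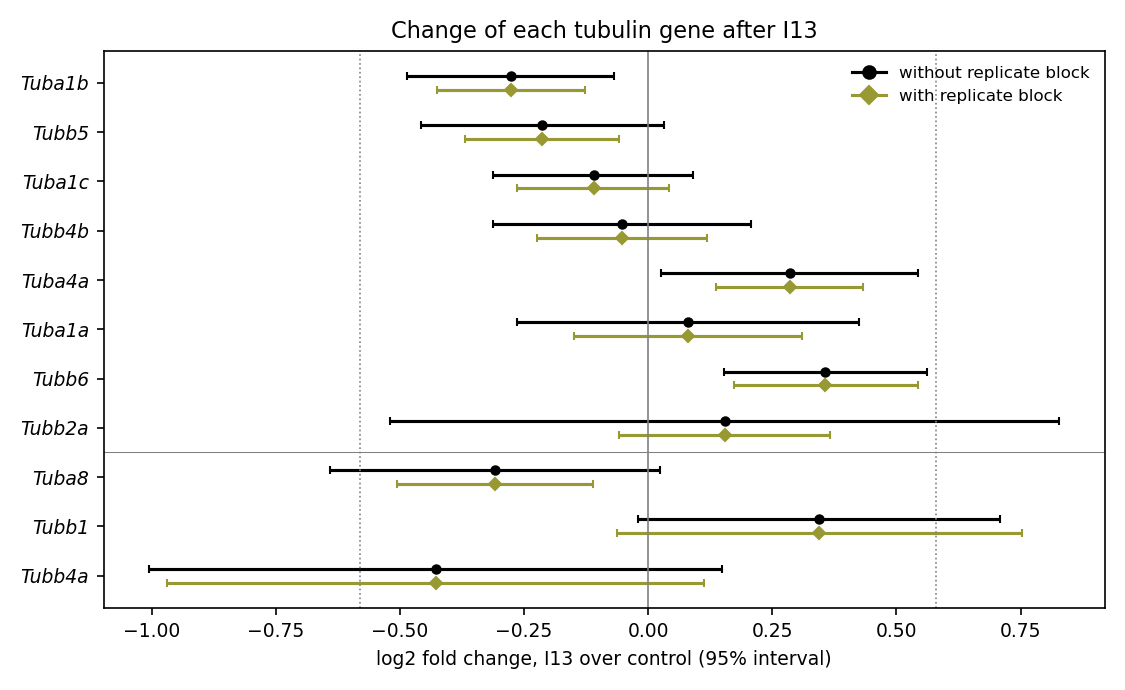
Log2 fold change (I13 over control) with its 95% interval for the 8 tested isotypes and, under the gray line, 3 other tubulin genes; black circles are the fit without the replicate block, olive diamonds the fit with it, and dotted lines mark 0.58 in either direction. Intervals without the block miss 0 for Tuba1b, Tuba4a and Tubb6, and with the block also for Tubb5 and Tuba8.

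In all, the control and I13 values of 3 of the 8 tested isotypes did not overlap, against 25.2% of all genes tested. In 6 of the 8 the 3 same-numbered pairs shared a direction, against 51.5% of all genes. They were Tuba1b, Tuba1c and Tubb5, lower in each pair, and Tuba4a, Tubb2a and Tubb6, higher in each pair. The exceptions were Tuba1a, higher in 2 of 3 pairs, and Tubb4b, lower in 2 of 3. In the replicate 1 pair of Tubb2a both samples had 393 fragments, so their FPKM differed by the library total alone. When the whole fragments recovered from the FPKM were used with voom and the replicate block, 3 of the 8 had an adjusted p below 0.05, against 12.4% of all genes. These were Tuba1b (0.0309), Tubb6 (0.0315) and Tuba4a (0.0339), all under the fold change threshold. Without control replicate 2, in the fit without the block, Tubb6 alone kept an unadjusted p below 0.05.

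**Figure D3:**
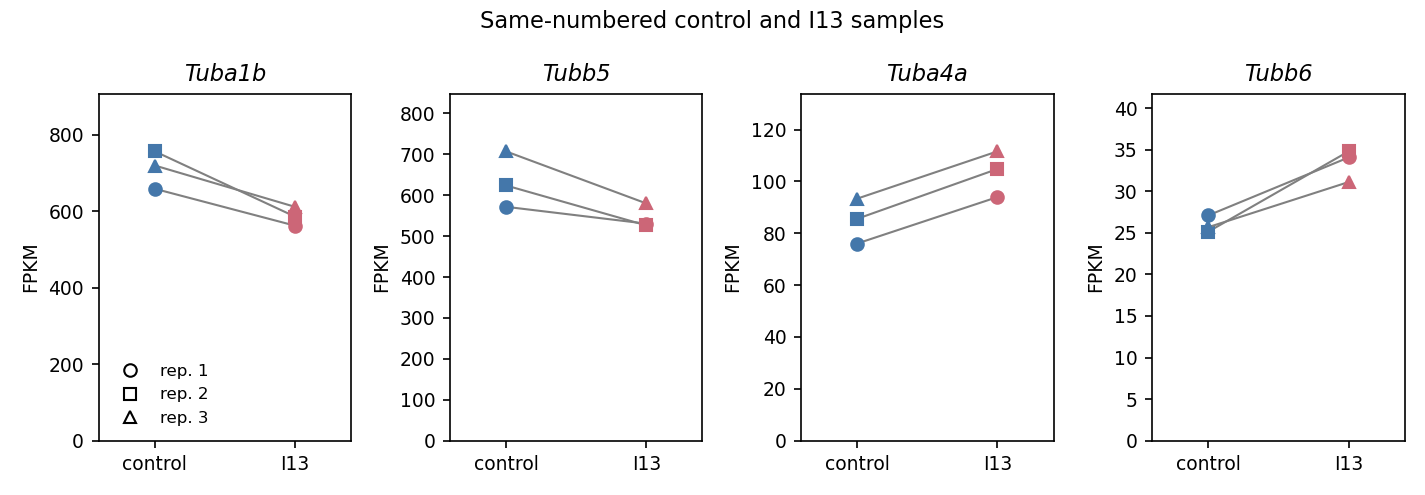
FPKM (linear axis from 0) of Tuba1b, Tubb5, Tuba4a and Tubb6 in control and I13 samples, with lines joining samples of the same replicate number. All lines of Tuba1b and Tubb5 slope down and all lines of Tuba4a and Tubb6 slope up, and the 3 lines of Tuba4a are nearly parallel.

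Because FPKM is relative to the library, the make-up of the tubulin mRNA pool within each sample was described as well, over the 7 α- and the 8 β-tubulin genes in the table. The summed α-tubulin level was 1082, 1183 and 1177 FPKM in the controls and 974, 1004 and 1075 FPKM after I13, so the I13 samples lay below the controls, with I13 replicate 3 close to control replicate 1. The summed β-tubulin level was 781, 873 and 948 FPKM in the controls and 756, 772 and 813 FPKM after I13, and here the groups overlapped. The ratio of α to β stayed between 1.24 and 1.39 in all 6 samples, with means of 1.33 ± 0.0757 in the controls and 1.3 ± 0.0172 after I13 (SD, n = 3 per group).

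Tuba1b made up 60.9%, 64% and 61.2% of the α-tubulin FPKM in the controls and 57.7%, 58.4% and 56.9% after I13. Tuba4a made up 7.03%, 7.23% and 7.93% in the controls and 9.64%, 10.4% and 10.4% after I13. Neither share overlapped between the groups, and the group means differed by -4.35 and 2.76 percentage points. The level of Tuba4a relative to Tuba1b, which no scaling between libraries can alter, was 0.115, 0.113 and 0.13 in the controls and 0.167, 0.179 and 0.183 after I13. Among the β-tubulins, Tubb5 accounted for 73.2%, 71.5% and 74.6% in the controls and 70.1%, 68.2% and 71.3% after I13. Every I13 share lay under every control share, but I13 replicate 3 and control replicate 2 nearly touched. Tubb6 accounted for 3.47%, 2.88% and 2.71% in the controls and 4.51%, 4.51% and 3.83% after I13, again without overlap. The level of Tubb6 relative to Tubb5 was 0.0474, 0.0403 and 0.0363 in the controls and 0.0642, 0.0662 and 0.0537 after I13. The ratios of both pairs were thus higher in each I13 sample than in any control, by 47.5% and 48.4% of the control mean. The ratio of Tuba1a to Tuba1b, also computed, overlapped between the groups, at 0.129, 0.085 and 0.113 in the controls and 0.136, 0.123 and 0.155 after I13. These pairs were chosen after their values were seen, and no test was made of them. The shares of Tuba1c, Tuba1a, Tubb4b and Tubb2a overlapped between the groups.

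**Figure D4:**
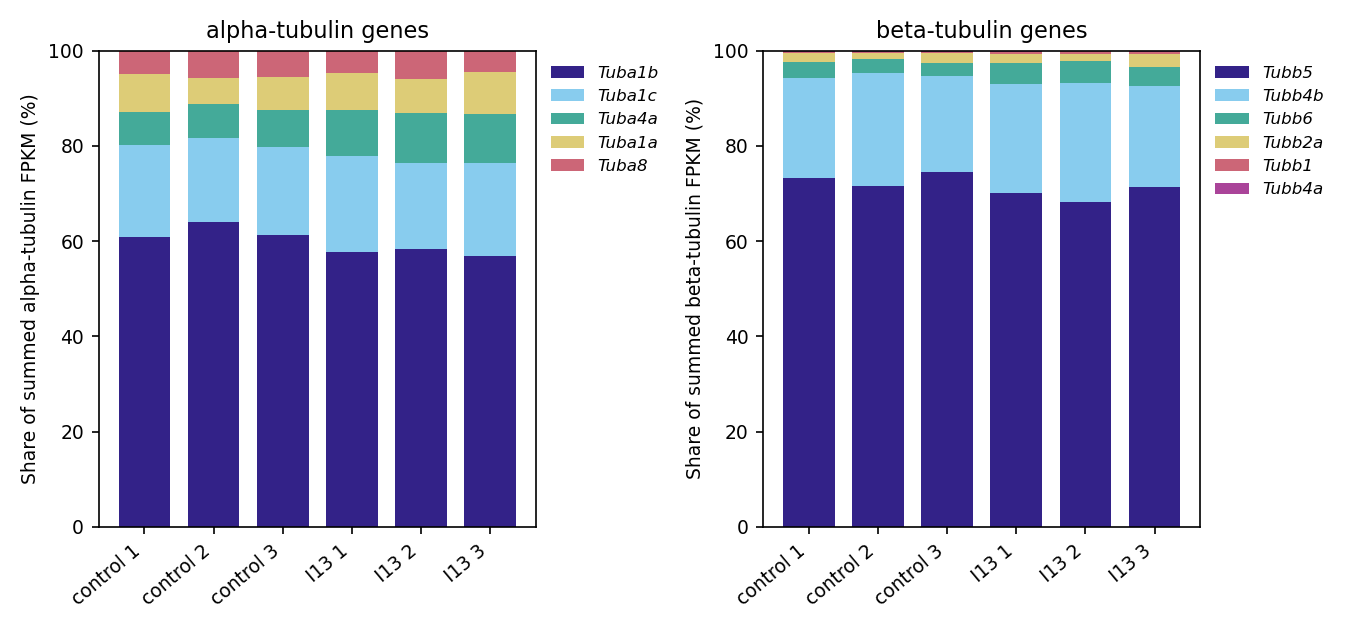
Share (%) of each gene in the summed FPKM of α-tubulin (left) and β-tubulin genes (right) in each of the 6 samples; genes with a mean share under 0.1% are not drawn. Tuba1b takes from 56.9% to 64% of the α-tubulin FPKM and Tubb5 from 68.2% to 74.6% of the β-tubulin FPKM, and both take less in each I13 sample than in any control.

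Many isotypes are near-identical paralogs, above all Tuba1a, Tuba1b and Tuba1c among themselves and Tubb2a and Tubb2b. All 10 could be written as whole fragments, so fragments were not split between copies in fractions. Whether fragments that matched several copies were dropped or counted was not tested, and the division of levels between close paralogs is uncertain to that degree.

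Other tubulin genes were taken from a fixed list of 10, of which 6 were tested and none was called with or without the block. Tuba8, an α-tubulin described mainly in muscle and testis, was well expressed here, with 62.5 ± 7.81 FPKM in the controls and 50.6 ± 7.65 FPKM after I13 (SD, n = 3 per group). Tuba8 thus had a log2 fold change of -0.31 (SE 0.14, limma adjusted p = 0.294, or 0.0839 in the blocked fit), and its groups overlapped. Tubb1, the β-tubulin of platelets and megakaryocytes, was at 2.53, 2.26 and 2.99 FPKM in the controls and at 3.15, 3.73 and 3.05 FPKM after I13, a log2 fold change of 0.34 (limma adjusted p = 0.288) from only 56 to 88 fragments. Tubb4a, a β-tubulin of brain named after its values were seen, had 1.86 ± 0.2 and 1.4 ± 0.416 FPKM (SD, n = 3 per group) and a log2 fold change of -0.43 (limma adjusted p = 0.387). Of 7 megakaryocyte markers, 5 were in the table, with a summed level of 177 to 341 FPKM in the controls and 198 to 308 FPKM after I13, carried by Itga2b and Itgb3, while the defining platelet factor gene Pf4 was at 0 in all samples except I13 replicate 2. The part of these cells or genes in the Tubb1 values was not tested.

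The machinery that makes, decays, modifies and organizes tubulin showed no called gene with or without the block on log2(FPKM + 0.1). With voom and the block, Scaper passed both thresholds (log2 fold change 0.597, limma adjusted p = 0.018). That fit called 375 genes elevated and 128 decreased of 12162. The folding list, with the chaperonin CCT, prefoldin and the tubulin cofactors, had 21 genes tested, of which 15 had a log2 fold change below 0 and 6 above it, with a median of -0.12 against -0.01 over all genes. At an unadjusted p below 0.05 were 3, all lower after I13, a share no higher than the 18.6% of all genes tested. Of these Tbcd, a cofactor that holds β-tubulin during dimer assembly, had 14.1 ± 0.274 and 11.8 ± 0.247 FPKM (SD, n = 3 per group), for a log2 fold change of -0.25 (limma adjusted p = 0.184). Pfdn5, a prefoldin subunit, had 91.1 ± 6.84 and 76.6 ± 3.9 FPKM (SD, n = 3 per group), for a log2 fold change of -0.25 (limma adjusted p = 0.218). The lowest adjusted p of the list with the block was 0.0797.

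Of the 6 genes of tubulin mRNA autoregulation, Scaper and Cnot3 had an unadjusted p below 0.05, in opposite directions. Among all genes tested, 18.6% had such a p. Scaper, which links the ribosome-bound factor TTC5 to the CCR4-NOT deadenylase, was at 2.19, 2.19 and 1.79 FPKM in the controls and at 3.39, 3.42 and 2.56 FPKM after I13. The I13 samples lay above the controls, with a log2 fold change of 0.57 (SE 0.17, limma adjusted p = 0.16, or 0.0677 in the blocked fit). Cnot3, a CCR4-NOT subunit, had 11.1 ± 1.29 and 8.86 ± 0.413 FPKM (SD, n = 3 per group), for a log2 fold change of -0.32 (limma adjusted p = 0.203). Ttc5, the factor that recognizes nascent tubulin and the sensor of this circuit, had 19.3 ± 1.15 and 17.9 ± 0.655 FPKM (SD, n = 3 per group), with a log2 fold change of -0.11 (95% interval -0.32 to 0.10).

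Among enzymes that modify tubulin, 11 of the 21 listed were tested, 9 were below the filter and 1 was not analysed here. Ttll12, a member of the tubulin tyrosine ligase-like family, was the only one of the 11 with an unadjusted p below 0.05, against 18.6% of all genes. It had 29.1 ± 2.04 and 24.3 ± 0.45 FPKM (SD, n = 3 per group) and a log2 fold change of -0.26 (limma adjusted p = 0.194). Ttll1, a polyglutamylase subunit, came next with a log2 fold change of -0.19 (limma adjusted p = 0.333). The mRNA of the α-tubulin deacetylase Hdac6, singled out after its values were seen because the treatment is an HDAC inhibitor, was at 7.44 ± 0.403 and 7.33 ± 0.358 FPKM (SD, n = 3 per group). Its log2 fold change was -0.02 with a 95% interval from -0.25 to 0.21. Sirt2 and Atat1, singled out with it, had log2 fold changes of 0.04 (95% interval -0.32 to 0.39) and -0.11 (95% interval -0.63 to 0.41).

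Of the genes that nucleate microtubules, 16 were tested, and 2 had an unadjusted p below 0.05, both lower after I13, again no higher a share than the 18.6% of all genes. Mzt2, a small subunit of the γ-tubulin ring complex, had 34.8 ± 3.62 and 25 ± 2.16 FPKM (SD, n = 3 per group), for a log2 fold change of -0.47 (SE 0.11, limma adjusted p = 0.116, or 0.0715 in the blocked fit). Haus4, of the augmin complex that branches microtubules, had a log2 fold change of -0.35 (limma adjusted p = 0.264). Of the genes of microtubule stability and dynamics, 22 were tested, with 2 higher and 3 lower at an unadjusted p below 0.05, near the 18.6% of all genes. Kif18b, a kinesin that limits the growth of astral microtubules in mitosis, had 24.2 ± 1.02 and 18.2 ± 1.87 FPKM (SD, n = 3 per group), for a log2 fold change of -0.41 (limma adjusted p = 0.126).

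Tubulin expression accompanies cell division, and 14 proliferation genes were set beside it. None was called with or without the block on log2(FPKM + 0.1). At an unadjusted p below 0.05 were 1 higher and 4 lower of the 14, against 18.6% of all genes, and the median log2 fold change was -0.10. The mitotic kinases Plk1 and Aurka had log2 fold changes of -0.40 (limma adjusted p = 0.151, or 0.0563 in the blocked fit) and -0.34 (limma adjusted p = 0.167, or 0.0581 in the blocked fit), and in both all I13 samples lay below the controls. In the other direction, and named after their values were seen, Cenpf, a kinetochore protein, had a log2 fold change of 0.64 (limma adjusted p = 0.185) and Mki67, the Ki-67 antigen, one of 0.48 (limma adjusted p = 0.311). With voom and the block, Cenpf passed both thresholds (log2 fold change 0.66, limma adjusted p = 0.0213), as Scaper did. The summed level of the list was 972 to 1086 FPKM in the controls and 859 to 1067 FPKM after I13. Its part in the tubulin values was not tested.

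**Figure D5:**
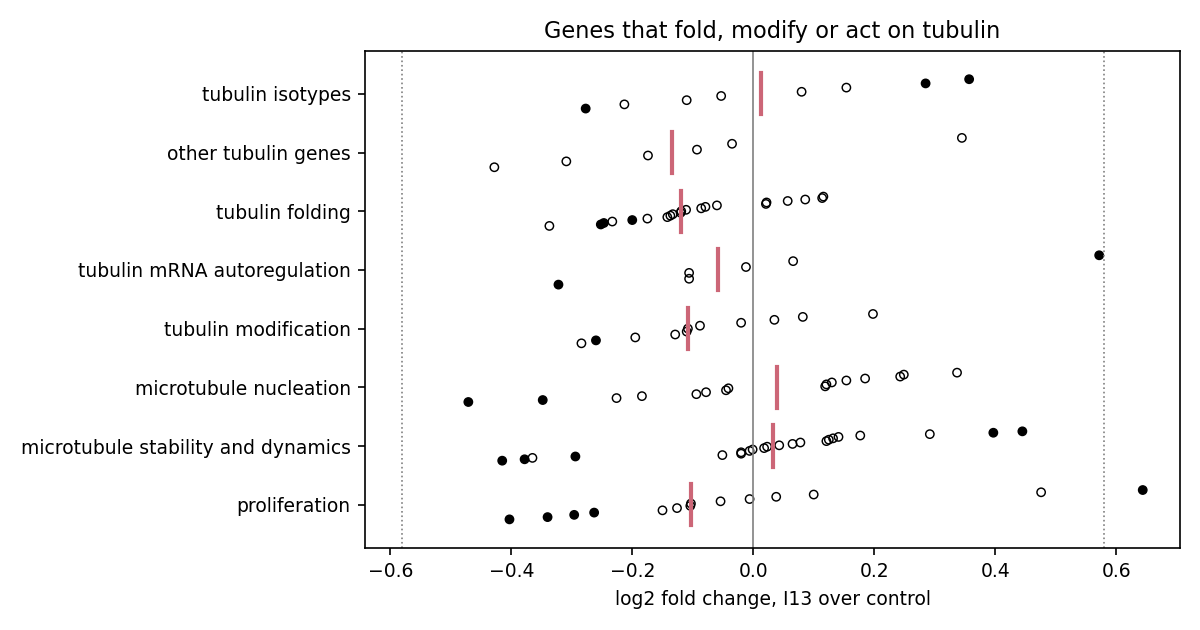
Log2 fold change (I13 over control) of each tested gene in the tubulin isotypes and 7 fixed lists; filled circles have an unadjusted p below 0.05, red bars are list medians and dotted lines mark 0.58 in either direction. The isotypes lie between -0.28 and 0.36, and of the lists drawn, the proliferation list alone has a gene past a dotted line. This is Cenpf (0.64), named after its value was seen and not called in the fit drawn.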

How the data were processed

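The authors deposited FPKM values per gene and sample, unpooled. Per the labels, the submitters' processing notes name Trimmomatic, HISAT2, Cufflinks and HTSeq, without versions, and the build hg38, although the identifiers are mouse. Libraries were stranded and poly(A)-enriched. Other columns of per-sample values left without a sample numbered 0.

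Whole fragments and gene lengths were recovered from the FPKM of 22412 of 22413 genes, within 0.0001 fragments. Library totals are 16762119 to 17722950, and the exact intervals of Tubb2b and Tubb3 cover counting error only. The intervals of log2 fold changes come from limma and rest on the spread between samples.

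limma 3.58.1 (R 4.3.3) was fitted across 12163 genes with a mean of at least 0.5 FPKM to log2(FPKM + 0.1), with a trend in eBayes. Fold changes on this scale understate low genes. Recovery and fit were tested on simulated data. Correlations of deviations from group means were 0.145, 0.301 and 0.219 for same-numbered samples and -0.258 to 0.05 otherwise, so the numbers, from the labels, were taken as pairs. The labels do not say what a number marks, and the pairing rests on the same values that the blocked fit tests.

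Named were all 10 isotypes and, from each fixed list, the genes called and the 2 with the lowest unadjusted p, of which some are not reported here. Isotypes and lists were chosen with earlier results of these data known. Alternatives were pseudocounts, filters, scalings, eBayes without a trend, voom, the block and left-out samples. Figures used matplotlib 3.10.9 in Python 3.11.15.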

Additional observations from a re-analysis of the deposited data

How the results depend on the processing

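Genes called elevated and decreased in the fit without the block numbered 4 and 1. The study reported more in both directions, at the same thresholds, and names no test for them. Here they were 166 and 64 with the replicate block, and 375 and 128 with the replicate block and voom on recovered fragments. With a pseudocount of 0.01 or median-ratio scaling they were 2 and 0, and without a filter or without a trend 5 and 3. Leaving out 1 sample gave 0 to 0 for both, while limma put 1478 to 2482 genes below an unadjusted p of 0.05. In the blocked fit, 78 and 5 were called without replicate 1 of both groups, and 0 and 0 without replicate 2 or without replicate 3, where 1638 and 3160 genes had an unadjusted p below 0.05. The causes of these differences were not tested, and the fits that left out a sample or a pair also had fewer samples. No isotype was called under any of these settings. The number of isotypes with an adjusted p below 0.05, 0 in the fit without the block, was 3 with the block and voom. These were Tuba1b (log2 fold change -0.278), Tuba4a (0.285) and Tubb6 (0.359), and the block alone changed no call of an isotype.

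The log2 fold changes of Tuba1b, Tuba4a, Tubb5, Tubb6 and Tuba1c kept their direction under every setting, from -0.332 to -0.232, 0.207 to 0.355, -0.285 to -0.132, 0.326 to 0.406 and -0.162 to -0.056 when 1 sample was left out. Those of Tuba1a, Tubb2a and Tubb4b ran from -0.042 to 0.158, -0.118 to 0.374 and -0.146 to 0.027. Tuba1a was at -0.042 and Tubb2a at -0.049 without control replicate 2, and they were at -0.038 and -0.118 without I13 replicate 3. Tubb4b was at 0.027 without control replicate 2. Scaling moved the median of all genes to at most 0.024. Depth limits Tubb2b and Tubb3 alone, with at most 4 fragments a sample.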

Other observations

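A processed pseudogene, Tubb4b-ps1, had 3.67, 3.1 and 3.53 FPKM in the 3 controls, against 2.63, 3.39 and 3.21 FPKM after I13, from 62 to 87 fragments a sample. Its log2 fold change was -0.16 (limma adjusted p = 0.592), and whether its fragments come from Tubb4b was not tested.

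The 6 genes set for BaF3-T315I identity had fold changes in both directions. Csf2rb, the common β chain of the interleukin-3 receptor, had 329 ± 118 and 588 ± 218 FPKM (SD, n = 3 per group), and Csf2rb2, its paralog, had 286 ± 110 and 572 ± 194 FPKM (SD, n = 3 per group). Both rose in the fit with the replicate block, with log2 fold changes of 0.83 and 1.02 (adjusted p = 0.0313 and 0.0312 from limma with the block, and 0.22 and 0.165 without it). Reads shared between these paralogs make their division uncertain. Replicate 3 was the highest of each group for both genes, as it was for Tubb2a. Ptprc, the pan-leukocyte antigen CD45, had 10.6 ± 0.373 and 14.4 ± 0.801 FPKM (SD, n = 3 per group), for a log2 fold change of 0.44 (limma adjusted p = 0.109). Il3ra, the α chain of the interleukin-3 receptor, had a log2 fold change of 0.33 (limma adjusted p = 0.408). The mouse genes Bcr and Abl1 had lower values after I13 without overlap. Groups did not overlap, in either direction, for 25.2% of all genes tested. Bcr had 4.4 ± 0.851 and 2.83 ± 0.829 FPKM (SD, n = 3 per group), for a log2 fold change of -0.64 (limma adjusted p = 0.211, or 0.0623 in the blocked fit). With voom and the block, Bcr passed both thresholds (log2 fold change -0.646, limma adjusted p = 0.0112). Csf2rb and Csf2rb2 did so too, in the other direction. Abl1 had 11.4 ± 1.14 and 9.46 ± 0.254 FPKM (SD, n = 3 per group), for a log2 fold change of -0.26 (limma adjusted p = 0.246). BCR-ABL joins these genes, and whether fragments of the transfected fusion are counted in either was not tested. Il3ra, Bcr and Abl1 are given after their values were seen, to complete the list.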
